A study of Mus musculus with 14 samples.

Results

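Genes that mark the connective tissue, smooth muscle and mesothelium of the bladder were followed through 14 RNA-seq libraries of mouse bladder urothelium, the epithelium that lines the bladder, at embryonic day 15.5. The set held 37 named genes, and 36 of them were listed among the 20308 gene symbols of the table; Muc16 was not. They were grouped into fibroblast markers (5 genes), extracellular matrix (14), smooth muscle (10), mural cells of vessels (2) and mesothelium (6 named, 5 listed). After the filter on low counts 34 of the 36 could be tested, among 13011 genes in all. Dpt and Cspg4 did not pass it. Lrrn4 passed through the Control libraries, where it was high.

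The urothelium had been freed from its stroma with trypsin, and tissue of several embryos was pooled in each lysate. The mice were of C57BL/6; 129S4 background. The groups were: Cre-negative littermates (n = 7), whose Dnmt1 alleles the labels do not describe; Control embryos, Shhcre/+; Dnmt1flox/+ (n = 2); and Dnmt1cKO embryos, Shhcre/+; Dnmt1flox/flox (n = 5). Control and Dnmt1cKO embryos thus share Shhcre and 1 floxed Dnmt1 allele. Dnmt1 encodes the maintenance DNA methyltransferase. Shhcre places the Cre recombinase under control of Shh, the Hedgehog ligand gene that the urothelium expresses, so deletion is directed to the epithelium and not to the stroma. The labels do not say that the libraries came from separate litters, so p-values here cover only the spread among lysates, each a pool of embryos.

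In the fetal bladder the epithelium lies on a mesenchyme that gives rise to an inner layer of fibroblasts and an outer coat of smooth muscle, and a sheet of mesothelium covers the peritoneal surface. Fibroblasts secrete collagens and small proteoglycans. Smooth muscle cells make a contractile apparatus of muscle actins, myosin and calponin-type regulators, whose genes are driven by serum response factor and its coactivator myocardin through a promoter element called the CArG box. Mesothelial cells are known for Wt1, a zinc finger transcription factor, and Msln, the surface glycoprotein mesothelin. In a preparation of urothelium these genes therefore report tissue that was not removed, unless the epithelium itself transcribes them. In bulk RNA, fewer cells of a type and less RNA per cell cannot be told apart.

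Total counts ran from 2520509 to 13131921 per library. Dnmt1 stood at 41.3 to 192 CPM (counts per 1000000, on library sizes scaled by the TMM method) in Cre-negative, 97.4 to 106 in Control and 9.98 to 123 in Dnmt1cKO. The library labelled Dnmt1cKO 3 had the 123 CPM, above both Control libraries, against 9.98 to 49.1 in the other Dnmt1cKO libraries. After Control 2 it also had the highest sum of fibroblast and matrix genes, so the correlations between subsets and the comparison of Dnmt1cKO with Cre-negative are given with and without it. That choice was made after its values were seen. Between 9402 and 11856 genes had a count in a Dnmt1cKO library, 10391 to 12674 in a Cre-negative and 12289 to 13740 in a Control library. A summed list of 16 urothelium genes ranged from 5997 to 21074 CPM, so epithelial RNA was abundant in each library.

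The promoters of smooth muscle genes are shown first, since the CArG box is the element that these genes share in textbook accounts. RefSeq promoters (GRCm38.p6, 250 bases before to 50 bases after the start) could be printed or searched for 23 of the members, of which 6 were smooth muscle genes. Pdgfrb was left out of this search. The search was for CC, 6 bases of A or T, and GG, a form that reads alike on both strands. It found a CArG box in 1 of the 23, Myl9, against 488 of 27025 genes in the promoter table (1.81%). Allowing exactly 1 of the 6 core bases to be G or C, a choice made after the first search had been seen, gave a CArG-like match in 5 of the 23 members, 2 of them smooth muscle genes, against 2620 of 27025 genes (9.69%). Of the 6 smooth muscle genes searched, Acta2 and Myl9 had a match and Des, Cnn1, Lmod1 and Synpo2 had none. Myh11, Tagln, Actg2 and Myocd were not among the promoters searched, so nothing is said of theirs. The 250 bases before the starts of Acta2 and Myl9 are printed below, with matches in capitals. Acta2 is on the minus strand (chr19:34255374-34255623) and Myl9 on the plus strand (chr2:156775214-156775463).
Acta2: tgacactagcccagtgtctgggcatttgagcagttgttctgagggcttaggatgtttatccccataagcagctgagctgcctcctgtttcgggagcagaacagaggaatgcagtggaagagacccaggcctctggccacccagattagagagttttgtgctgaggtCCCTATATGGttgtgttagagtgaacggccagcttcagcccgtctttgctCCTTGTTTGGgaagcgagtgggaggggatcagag
Myl9: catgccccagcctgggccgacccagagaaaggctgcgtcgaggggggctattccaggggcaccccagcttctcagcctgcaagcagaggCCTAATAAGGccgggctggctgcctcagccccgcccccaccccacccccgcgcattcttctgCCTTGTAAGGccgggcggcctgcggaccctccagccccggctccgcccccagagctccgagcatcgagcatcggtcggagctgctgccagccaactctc
The matches of Acta2, both CArG-like, start 84 and 34 bases before the start of transcription. Those of Myl9 start 161 bases before it (the CArG box) and 99 bases before it (CArG-like). A match of letters describes the sequence and does not show binding.

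**Figure D1:**
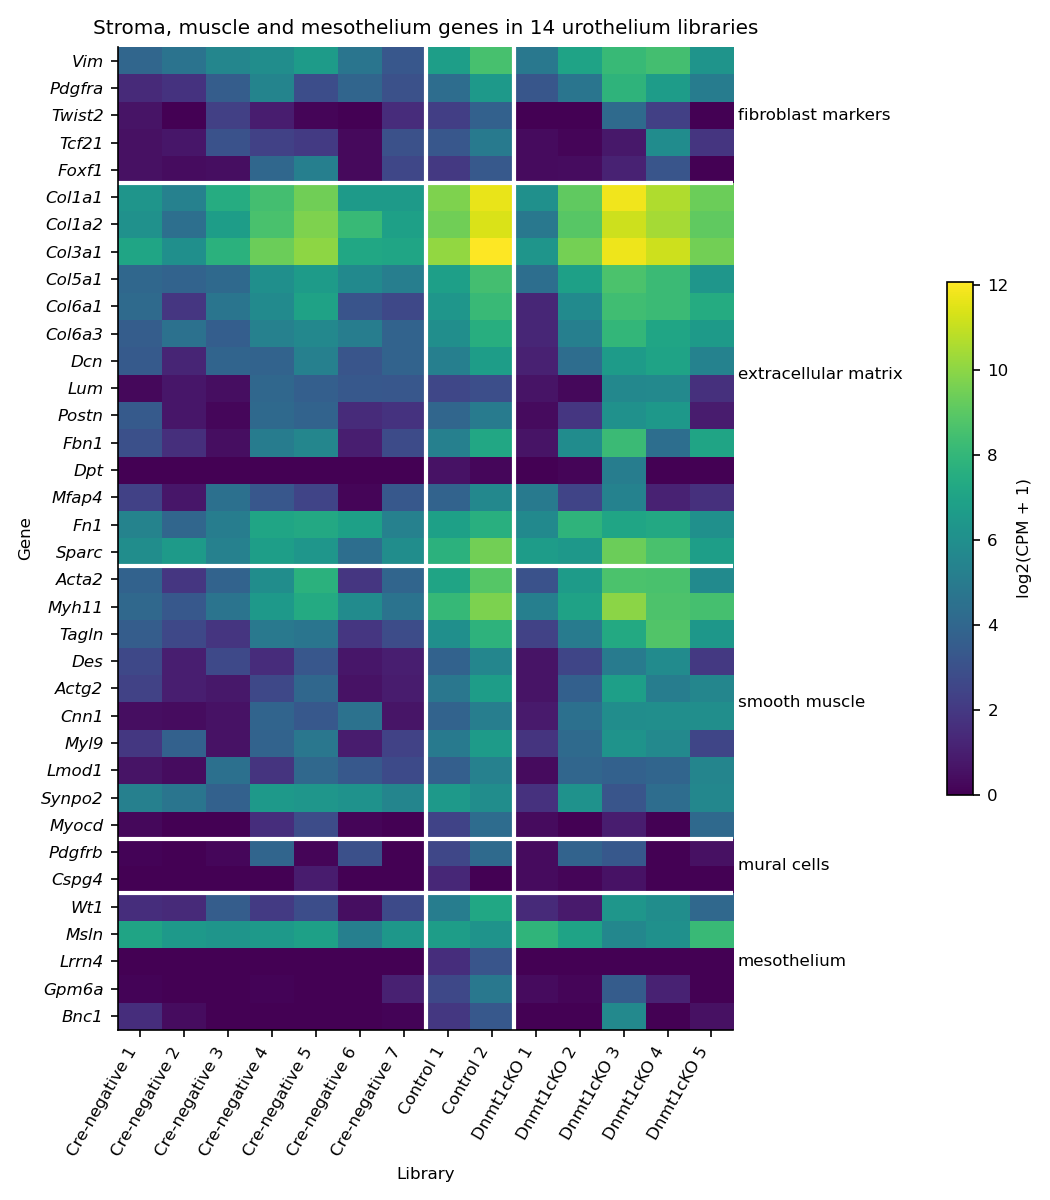
Level of each of the 36 listed genes (rows, by subset) in each library (columns, by group; white lines separate subsets and groups), as log2(CPM + 1). Collagen genes are the brightest rows, Control 2 and the libraries labelled Dnmt1cKO 3 and Dnmt1cKO 4 are the brightest columns, and Msln does not share that pattern.

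The summed level of the fibroblast and matrix genes covered a wider fold range between libraries than that of the urothelium list. The 19 fibroblast and matrix genes summed to 302 CPM in Cre-negative 2 and to 12878 CPM in Control 2, a 42.6-fold range, while the urothelium list ranged 3.51-fold. All listed members together made up from 0.0427% (Cre-negative 2) to 1.63% (Control 2) of a library's counts. Among the Cre-negative libraries the fibroblast and matrix sum was 302 CPM at the lowest, 715 at the median and 3366 at the highest. The Control libraries had 3493 and 12878 CPM. The Dnmt1cKO libraries had 414, 2554, 12234, 7294 and 2722 CPM, in the order of their numbers. Control 1 and 2 thus stood above every Cre-negative library, while the Dnmt1cKO libraries overlapped both other groups. The spread within a group was wide: 11.1-fold between the lowest and highest Cre-negative library and 29.6-fold within Dnmt1cKO.

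Smooth muscle genes followed the matrix genes closely. Their 10 members summed to 57.0 CPM at the lowest, 99.6 at the median and 559 at the highest in Cre-negative, to 654 and 1922 CPM in Control, and to 55.3, 392, 1843, 1480 and 726 CPM in Dnmt1cKO 1 to 5. Expressed as a share of the fibroblast and matrix sum, smooth muscle amounted to 17.0% ± 3.08 (SD, n = 7) in Cre-negative, 16.8% ± 2.69 (n = 2) in Control and 18.1% ± 5.42 (n = 5) in Dnmt1cKO. It ranged from 11.2% in Cre-negative 3 to 26.7% in Dnmt1cKO 5, while the sums themselves spanned 42.6-fold and 34.8-fold. On the log2(sum + 1) scale the sums of muscle and matrix had a Pearson r of 0.986 and a Spearman rho of 0.969 over the 14 libraries. The Pearson r was 0.982 without the 2 libraries farthest from the median 0.971 within the 7 Cre-negative libraries and 0.984 without the library labelled Dnmt1cKO 3. These correlations are descriptions: the sums of a library share its depth and its scaling.

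The urothelium sum moved the other way, with a Pearson r of -0.863 and a Spearman rho of -0.811 against the fibroblast and matrix sum. The r was -0.800 without the 2 farthest libraries and -0.627 within the Cre-negative libraries, and -0.869 without the library labelled Dnmt1cKO 3. The library labelled Dnmt1cKO 3 had the lowest urothelium sum, 5997 CPM, and Control 2 followed with 8258 CPM.

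**Figure D2:**
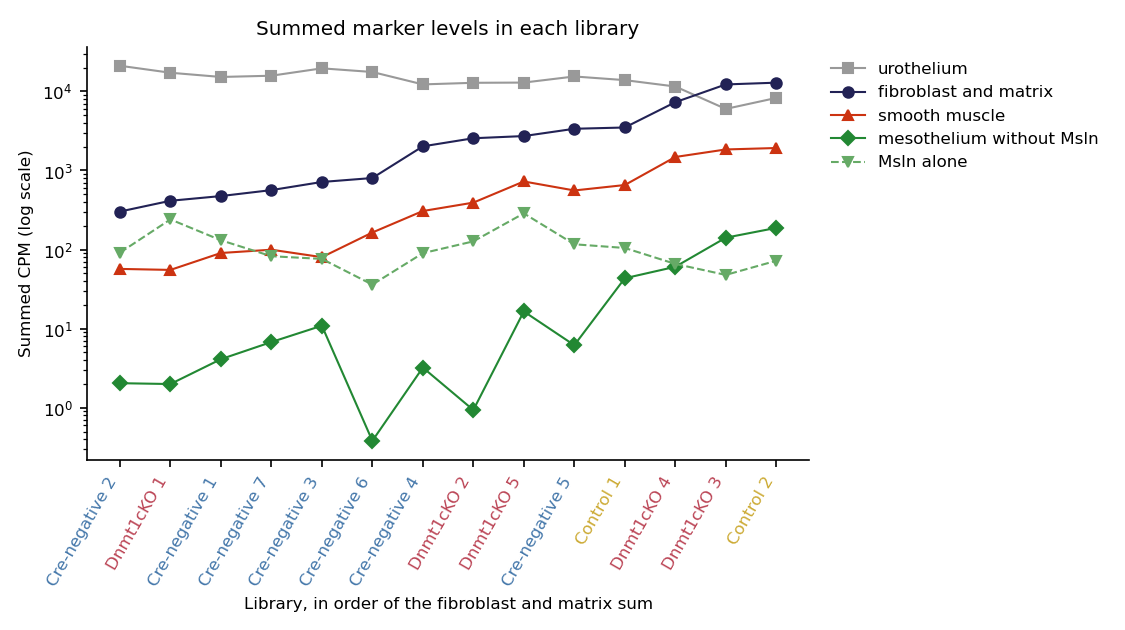
Summed CPM (log scale) of the urothelium list, the fibroblast and matrix, smooth muscle and mesothelium genes other than Msln, and Msln alone, in each library; libraries are in order of the fibroblast and matrix sum, and the colour of a library's name gives its group (blue Cre-negative, ochre Control, red Dnmt1cKO). Smooth muscle follows the fibroblast and matrix sum from 55.3 to 1922 CPM, and Msln does not.

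Col3a1 and Col1a1, the genes of the fibrillar collagen chains alpha 1(III) and alpha 1(I), had the highest mean levels. Col3a1 had 64.1 CPM at the lowest, 143 at the median and 1051 at the highest in Cre-negative, 1104 and 4291 CPM in Control, and 78.7, 755, 3511, 2272 and 712 CPM in Dnmt1cKO 1 to 5. Both Control libraries exceeded every Cre-negative library, and Dnmt1cKO 1 lay below the Cre-negative median. Col1a1 had 37.8, 95.9 and 709 CPM (lowest, median, highest) in Cre-negative, 858 and 3283 CPM in Control, and 65.8, 552, 3540, 1563 and 653 CPM in Dnmt1cKO. Its level was 53.8% to 101% of that of Col3a1 in CPM over the libraries. Each had an r of 0.989 with the fibroblast and matrix sum (the matrix sum) of the other genes. In every correlation of a single gene with this sum, the gene itself was left out of the sum.

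Dcn, which encodes the collagen-binding proteoglycan decorin, had 1.36, 13.1 and 37.7 CPM (lowest, median, highest) in Cre-negative, 35.7 and 103 CPM in Control, and 1.14, 19.2, 97.5, 125 and 39.5 CPM in Dnmt1cKO. The lower Control library fell within the Cre-negative range. Sparc encodes osteonectin, a collagen-binding matrix protein. It had 19.5, 59.4 and 109 CPM in Cre-negative, 212 and 717 CPM in Control, and 99.5, 85.1, 663, 390 and 107 CPM in Dnmt1cKO. The values of 3 Dnmt1cKO libraries lay within the Cre-negative range. Within the 7 Cre-negative libraries Sparc had an r of 0.121 with the matrix sum, against 0.966 for Col3a1.

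The remaining matrix genes are given by their correlations with the matrix sum, each gene being left out of the sum it was set against. Col1a2, Col5a1, Col6a1 and Col6a3, further collagen chains, had correlations of 0.952, 0.969, 0.939 and 0.883 with the matrix sum. Lum (the proteoglycan lumican), Postn (periostin) and Fbn1 (fibrillin-1, of microfibrils) had 0.653, 0.790 and 0.856, and Fn1 (fibronectin) had 0.794. Mfap4, a microfibril-associated gene, had 0.317 and was nearly as high in Dnmt1cKO 1 (29.9 CPM), where the matrix sum was 414 CPM, as in the library labelled Dnmt1cKO 3 (40.1 CPM). Dpt, which encodes dermatopontin, had 139 of its 148 counts in the library labelled Dnmt1cKO 3 (33.4 CPM) and 0 counts in all 7 Cre-negative libraries.

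Vim, the mesenchymal intermediate filament gene, had 8.76, 24.6 and 97.6 CPM (lowest, median, highest) in Cre-negative, 108 and 377 CPM in Control, and 27.4, 126, 283, 346 and 74.3 CPM in Dnmt1cKO. Both Control libraries and 3 of the 5 Dnmt1cKO libraries exceeded all Cre-negative libraries. Pdgfra, the receptor for platelet-derived growth factor of fibroblasts, had 1.73, 7.05 and 42.1 CPM in Cre-negative, 18.8 and 87.7 CPM in Control, and 8.27, 25.2, 233, 102 and 32.1 CPM in Dnmt1cKO. Its groups overlapped. The mesenchymal transcription factor genes were low and uneven: Tcf21 had 58.1 CPM in Dnmt1cKO 4 and 0.721 CPM in the library labelled Dnmt1cKO 3, and Foxf1 had 35.7 CPM in Cre-negative 5 and at most 8.20 CPM in Dnmt1cKO. Twist2 was at 0 in 5 libraries and reached 17.1 CPM in the library labelled Dnmt1cKO 3.

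Myh11, the smooth muscle myosin heavy chain gene, had 8.86 CPM at the lowest, 23.8 at the median and 167 at the highest in Cre-negative. It had 273 and 833 CPM in Control and 36.5, 123, 991, 409 and 368 CPM in Dnmt1cKO. Of the Dnmt1cKO libraries 2 lay within the Cre-negative range and 3 lay above it. Acta2, smooth muscle alpha-actin, had 2.73, 13.3 and 206 CPM in Cre-negative, 132 and 472 CPM in Control, and 7.13, 98.3, 394, 392 and 53.0 CPM in Dnmt1cKO. All groups overlapped. Measured in CPM, Acta2 ranged from 5.01% of Myh11 in Cre-negative 6 to 123% of it in Cre-negative 5.

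Tagln, which encodes the actin-binding protein transgelin, had 2.59, 5.96 and 28.4 CPM (lowest, median, highest) in Cre-negative, 63.7 and 219 CPM in Control, and 4.28, 31.3, 161, 446 and 83.0 CPM in Dnmt1cKO. Only Dnmt1cKO 1 fell within the Cre-negative range. Des, the muscle intermediate filament gene desmin, had 0.637, 1.85 and 8.81 CPM in Cre-negative, 13.0 and 45.8 CPM in Control, and 0.570, 4.68, 31.7, 55.7 and 3.04 CPM in Dnmt1cKO. In 3 of the Dnmt1cKO libraries it did not exceed the highest Cre-negative value. Actg2 (enteric smooth muscle gamma-actin), Cnn1 (calponin), Myl9 (myosin regulatory light chain) and Lmod1 (leiomodin) had correlations of 0.930, 0.861, 0.828 and 0.711 with the matrix sum. Myocd, the myocardin gene, was at 0 in 5 of the 14 libraries and at most 18.4 CPM.

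Synpo2, which encodes an actin-associated protein of muscle Z-discs, departed from the other muscle genes. It had 12.3, 43.9 and 92.6 CPM in Cre-negative, 86.9 and 58.9 CPM in Control, and 2.28, 69.9, 7.93, 18.6 and 47.8 CPM in Dnmt1cKO, so the library labelled Dnmt1cKO 3, with a muscle sum of 1843 CPM, was below every Cre-negative library for it. Its r with the matrix sum was 0.195. Synpo2 was chosen for this paragraph after its values had been seen.

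The 2 mural cell members were sparse. Pdgfrb, the platelet-derived growth factor receptor of pericytes, had 0, 0.114 and 14.2 CPM (lowest, median, highest) in Cre-negative, 4.97 and 17.1 CPM in Control, and 0.285, 13.4, 8.89, 0 and 0.434 CPM in Dnmt1cKO. It was at 0 in Dnmt1cKO 4, where the matrix sum was 7294 CPM. Cspg4, the pericyte proteoglycan NG2, was at 0 in 9 of the 14 libraries and its highest level was 1.52 CPM in Control 1. The depth allowed at most 3 counts, or 1.30 CPM in the shallowest library, to be missed where a gene stood at 0, for counting error only.

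The mesothelium genes did not move as 1 group. Wt1 had 0.382, 3.14 and 10.9 CPM (lowest, median, highest) in Cre-negative, 33.3 and 143 CPM in Control, and 1.71, 0.833, 80.0, 59.4 and 16.1 CPM in Dnmt1cKO. Both Control libraries and 3 Dnmt1cKO libraries exceeded every Cre-negative library. Msln had 36.0, 90.1 and 131 CPM in Cre-negative, 105 and 72.2 CPM in Control, and 241, 127, 47.8, 65.9 and 287 CPM in Dnmt1cKO. The lowest Dnmt1cKO value was in the library labelled Dnmt1cKO 3, which had 80.0 CPM of Wt1, and all 3 groups overlapped.

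Against the fibroblast and matrix sum Wt1 had a Pearson r of 0.802 and a Spearman rho of 0.771, and Msln had -0.242 and -0.363. Without the 2 farthest libraries the r was 0.732 for Wt1 and -0.236 for Msln; within the Cre-negative libraries it was 0.297 and 0.114, and without the library labelled Dnmt1cKO 3 it was 0.759 and -0.099. For Upk3b, a uroplakin gene of both urothelium and mesothelium, the r with the matrix sum was -0.543, and with Msln it was 0.505. Msln made up most of the summed mesothelium level in 12 of the 14 libraries, so that sum had an r of 0.431 with the matrix sum with Msln and 0.787 without it, or 0.389 and 0.732 when the library labelled Dnmt1cKO 3 was left out. The contrast depended on the measure: with the mean of log2 CPM in place of the sum, the r was 0.752 with Msln and 0.770 without it. When the most abundant gene of each subset was also dropped, the r of the sum without Msln was 0.653. Leaving out Msln was a choice made after its values were seen. Within the Cre-negative libraries the sum without Msln had an r of 0.166 with the matrix sum and of -0.009 with the smooth muscle sum, against 0.768 with the latter over the 14 libraries. Msln is therefore given by its own name here and is not read as a measure of mesothelium.

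The other mesothelium genes were low. Lrrn4, a leucine-rich repeat gene, had 29.0 and 50 counts in Control 1 and 2 and 0 counts in the other 12 libraries. Against a floor of 3 counts over the summed group it was at least 79.8-fold higher in Control than in Cre-negative. Against Dnmt1cKO it was at least 30.2-fold higher in Control. These bounds rest on 79.0 counts in 2 libraries. Lrrn4 passed the filter through those libraries alone, so the bounds describe its counts and do not test a group difference. Gpm6a, a membrane glycoprotein gene, had 5.18 and 27.8 CPM in Control and at most 1.17 CPM in Cre-negative. Bnc1, the basonuclin zinc finger gene, had 50.9 CPM in the library labelled Dnmt1cKO 3, 2.90 and 8.89 CPM in Control, and at most 2.02 CPM in any other library. Without Msln, mesothelium genes amounted to between 0.0367% (Dnmt1cKO 2) and 1.52% (Cre-negative 3) of the fibroblast and matrix sum, and to 1.24% and 1.46% in the Control libraries.

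**Figure D3:**
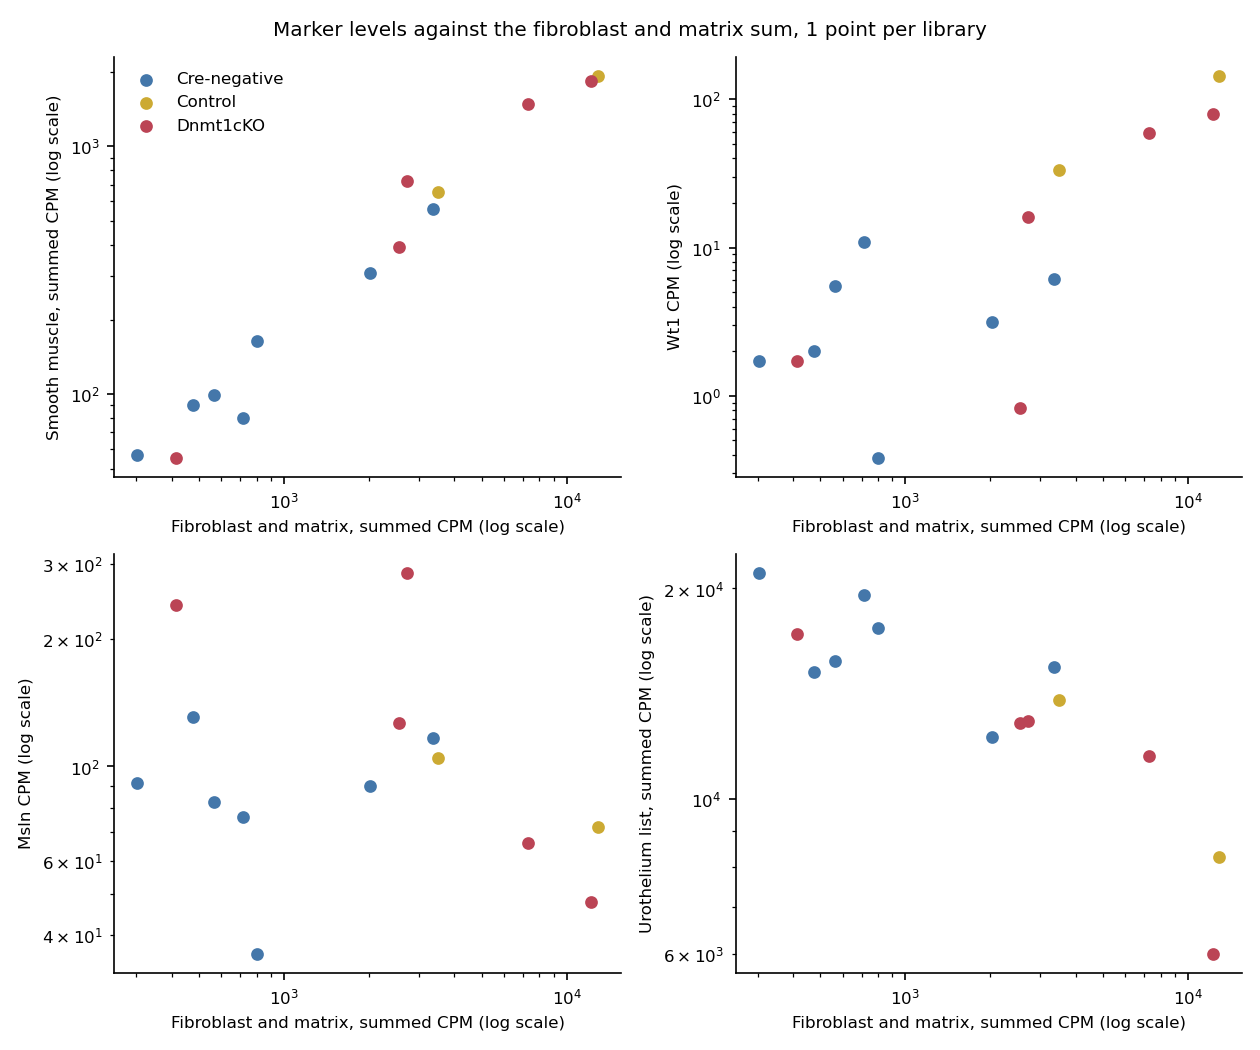
Each point is a library, coloured by group; the x axis is the summed CPM of fibroblast and matrix genes and the y axes are the smooth muscle sum, Wt1, Msln and the urothelium sum, all in CPM on log scales. Smooth muscle (r = 0.986) and Wt1 (r = 0.802) rise with the x axis, Msln (r = -0.242) does not, and the urothelium sum (r = -0.863) declines.

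Dnmt1cKO was compared with Cre-negative by the edgeR quasi-likelihood test with Benjamini-Hochberg adjustment over all 13011 genes. Of the 34 members tested 3 rose and 0 fell, while 1.10% of all genes were called in either direction and 0.915% were called higher. Tagln rose by a log2 fold change of 3.65 ± 0.77 (SE; edgeR adjusted p = 0.0129), Myh11 by 2.82 ± 0.64 (adjusted p = 0.0242) and Sparc by 2.03 ± 0.48 (adjusted p = 0.0330). The log2 fold change was above 0 for 31 of the 34 and below 0 for 2, Foxf1 (-2.03 ± 1.79) and Synpo2 (-0.81 ± 0.69). Its median was 2.07 over the members and -0.04 over all genes tested. At an unadjusted p under 0.05, 18 of the 34 were higher and 0 lower, and 6.66% of all genes were higher. No member had every Dnmt1cKO library above every Cre-negative library, while 0.853% of all genes did.

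Leaving out single libraries moved these calls. Without the library labelled Dnmt1cKO 3, Tagln alone was called (3.63 ± 0.81, adjusted p = 0.0227), and Myh11 (2.13 ± 0.62, adjusted p = 0.115) and Sparc (1.39 ± 0.45, adjusted p = 0.166) were not, while 0.975% of all genes were called. The median of the members' log2 fold changes was then 1.57, and 14 of the 34 were higher at an unadjusted p under 0.05, as were 5.96% of all genes. Without Dnmt1cKO 4 no member was called by edgeR, and Tagln had 2.60 ± 0.77 (adjusted p = 0.131). Without Dnmt1cKO 1, the library with the lowest muscle sum, 8 members were called, and without Cre-negative 5, the Cre-negative library with the highest matrix sum, 7 were. Leaving out Cre-negative 1, 3, 6 or 7 left Tagln alone past the threshold, with Myh11 at 2.68 to 2.82 (adjusted p = 0.0529 to 0.0657) and Sparc at 1.87 to 2.03 (adjusted p = 0.0695 to 0.0796). When Cre-negative and Control were joined as 1 reference group no member was called.

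By subset, 0 of 5 fibroblast markers, 1 of 13 matrix, 2 of 10 smooth muscle, 0 of 1 mural and 0 of 5 mesothelium genes passed. The median log2 fold changes of these subsets were 1.98, 2.05, 2.28, 0.61 and 2.89, and without the library labelled Dnmt1cKO 3 they were 1.80, 1.51, 1.98, 0.27 and 0.97. Values that missed the threshold included Acta2 (2.09 ± 0.85, adjusted p = 0.262), Col1a1 (2.53 ± 0.66, adjusted p = 0.0608), Col3a1 (2.10 ± 0.64, adjusted p = 0.122), Vim (2.13 ± 0.56, adjusted p = 0.0676), Pdgfra (2.72 ± 0.82, adjusted p = 0.115), Wt1 (2.89 ± 1.0, adjusted p = 0.177) and Msln (0.78 ± 0.41, adjusted p = 0.420).

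Control was compared with Cre-negative in the same fit. None of the 34 members passed the edgeR test with adjustment, while 0.0538% of all genes did, and DESeq2 called 1 member, Sparc. At an unadjusted p under 0.05, 20 of the 34 were higher and 0 lower, against 3.49% of all genes that were higher. For 16 of the 34 members both Control libraries lay above every Cre-negative library, as for 6.03% of all genes. Lrrn4 is among both counts and had to differ, since it passed the filter through the Control libraries alone; without it the counts were 19 and 15 of 33. The log2 fold change was positive for 31 and negative for 3 members (Foxf1, Lum and Msln), with a median of 2.67, and -0.04 over all genes. Sparc had 2.82 ± 0.58 (adjusted p = 0.0843), Myh11 3.34 ± 0.76 (adjusted p = 0.170), Tagln 3.61 ± 0.89 (adjusted p = 0.251) and Wt1 4.37 ± 1.19 (adjusted p = 0.257). When the library labelled Dnmt1cKO 3 was left out of the shared fit, Sparc was called by edgeR (2.82 ± 0.53, adjusted p = 0.0334). The Cre-negative libraries are shared by both comparisons, so the values of one are not independent of those of the other.

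Dnmt1cKO was also compared with Control, which carries the same Shhcre allele. No member was called by edgeR, while 0.177% of all genes were, and DESeq2 and limma-voom called no member either. At an unadjusted p under 0.05, 0 members were higher (1.71% of all genes) and 1 was lower, Lrrn4 (5.23% of all genes were lower). Without Lrrn4, whose filter set this value, 0 of 33 were lower. No member had every Dnmt1cKO library above both Control libraries, as 2.59% of all genes did. The log2 fold change was negative for 26 of the 34, with a median of -0.62 against -0.003 over all genes. Sparc had -0.79 ± 0.66, Myh11 -0.52 ± 0.87 and Tagln 0.04 ± 1.05 (adjusted p = 1 for each). With 2 Control libraries, standard errors of this size leave differences of severalfold undetectable.

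**Figure D4:**
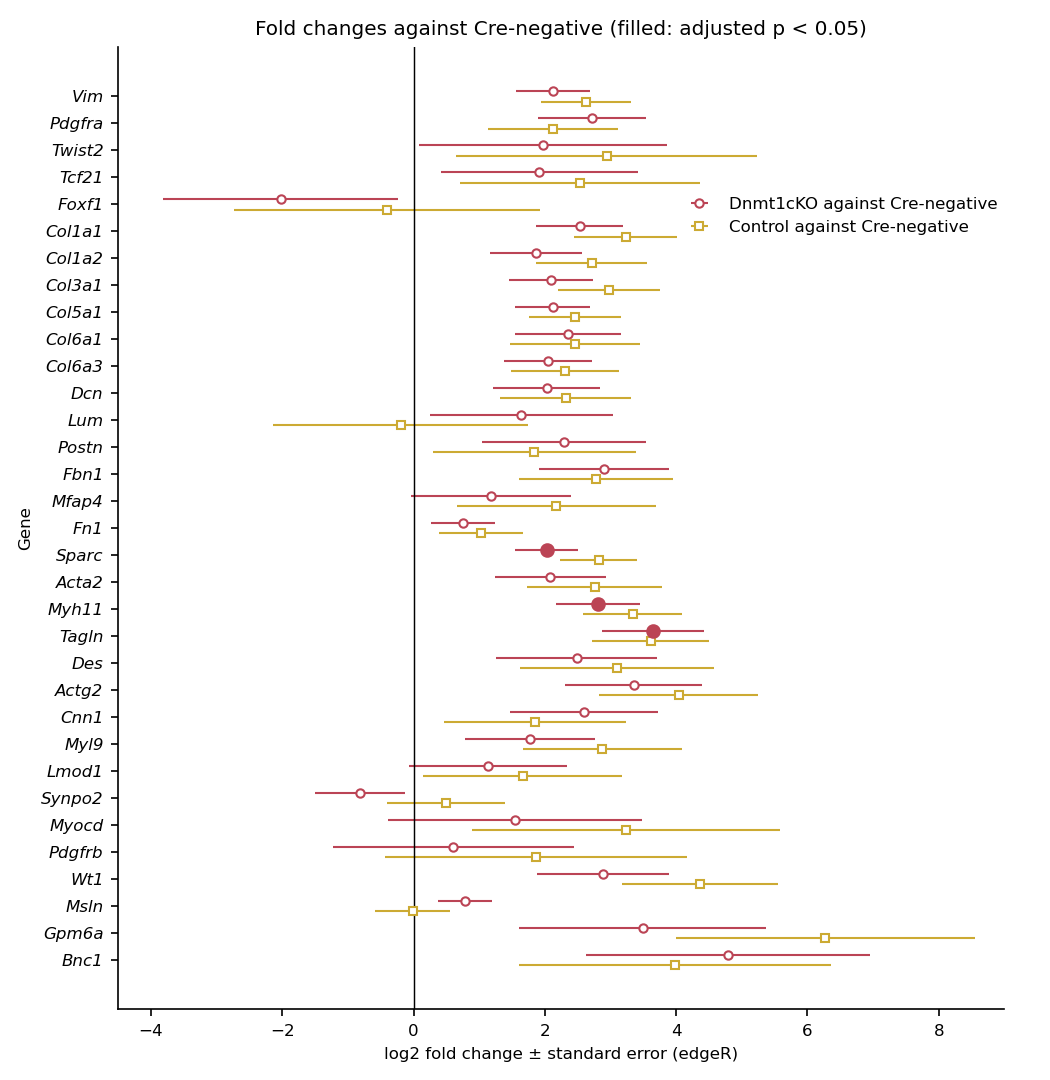
Log2 fold change against Cre-negative (x axis, points, with standard errors as bars) for 33 of the members tested (rows), in Dnmt1cKO (red circles) and Control (ochre squares); filled symbols passed an adjusted p of 0.05, and Lrrn4, at 0 in both Cre-negative and Dnmt1cKO, is left out. Most points of both comparisons lie between 1 and 4, and Tagln, Myh11 and Sparc are filled in Dnmt1cKO.

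Most members were higher in Control 2 than in Control 1. Among 33 members other than Msln with at least 20 counts in each of the 2 libraries, the ratio of Control 2 to Control 1 in CPM had a median of 3.44 and ran from 0.677 (Synpo2) to 5.37 (Gpm6a). Lum (1.30), Fn1 (1.69) and Postn (2.11) followed Synpo2 at the low end. The ratio for Msln was 0.689. Over 10816 genes with that many counts the median ratio was 1.04, with quartiles of 0.732 and 1.49, and over the urothelium list it was 0.591. The SD of the members' log2 ratios was 0.556, the lowest among the 90 pairs of libraries compared. The next lowest, 0.876, was for Cre-negative 5 and Dnmt1cKO 2.

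Other libraries with high sums of these genes were less alike. Between the libraries labelled Dnmt1cKO 3 and Dnmt1cKO 4, the SD of the members' log2 ratios was 1.09 over 24 members, and the ratio ran from 0.0656 (Fbn1) to 2.77 (Tagln). Pdgfrb, Cspg4, Dpt, Bnc1 and Myocd had counts in the first and 0 in the second. The Control libraries had 35 and 36 of the 36 members with a count, the Cre-negative libraries 29 to 33 and the Dnmt1cKO libraries 30 to 35. Total counts were 5731113 and 13131921 in Control, 3111972 to 12958881 in Cre-negative and 2520509 to 9573007 in Dnmt1cKO, and the part of depth in these zeros was not tested.

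**Figure D5:**
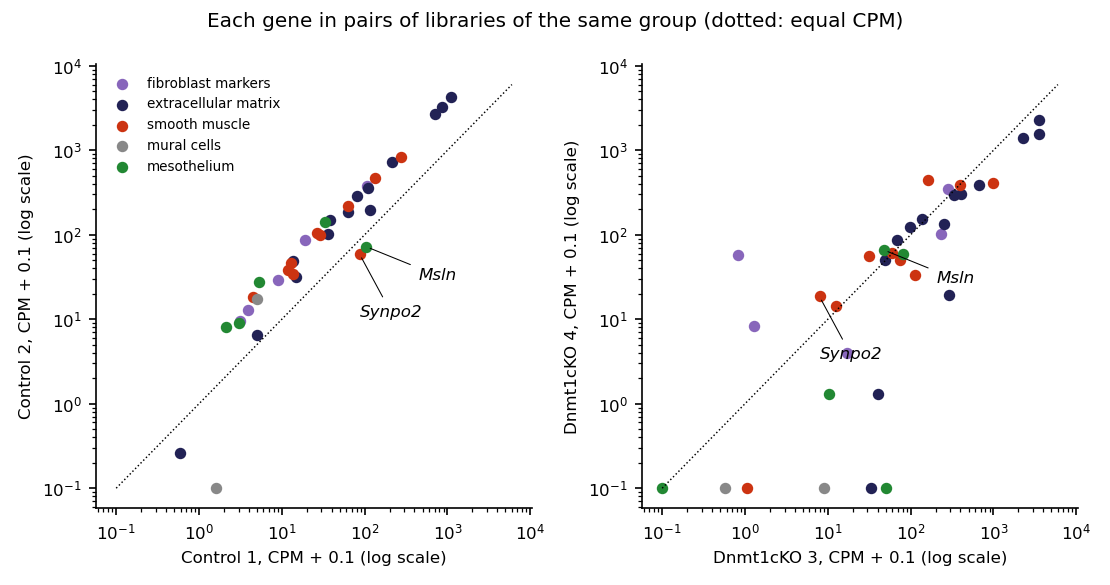
CPM + 0.1 of each listed gene in 2 libraries of the same group, on log scales; Control 2 against Control 1 on the left and Dnmt1cKO 4 against the library labelled Dnmt1cKO 3 on the right, coloured by subset. On the left most genes lie along a line above the dotted line of equal CPM (median ratio 3.44), and on the right they scatter around the line with several genes at 0 in 1 library.

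Levels were also compared between genes per 1000 bases of exon (GENCODE annotation, GRCm38). In Control 2 the levels were 500.2 CPM per 1000 bases for Col1a1, 437 for Col3a1, 215 for Acta2, 110 for Myh11, 110 for Tagln, 23.1 for Wt1 and 23.5 for Msln. Over the 14 libraries the median level was 69.2 for Col1a1, 25.6 for Acta2, 29.6 for Msln and 0.944 for Wt1, on the same scale. The median level of Msln was thus above the median level of Acta2, each taken over the 14 libraries, while in Control 2 Msln was below Acta2.

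Some members share sequence or exons with other genes. Acta2 had 84.1% identity with Actg2 over 1147 aligned bases of their transcripts and 85.6% with Acta1 over 1135 bases, and its expected counts were not whole in 12 of 14 libraries, as happens where RSEM divides reads between genes. The counts of Myh11 were not whole in 9 libraries. Exons of 10 members overlap those of a gene on the opposite strand, among them Tagln with Pcsk7 and Mfap4 with Mapk7. The use of strand in counting is not given in the sources used here, so reads of such partners cannot be told apart.

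Further genes of the same tissues were read from the same test. Of 16 further smooth muscle genes 3 rose in Dnmt1cKO against Cre-negative, where 0.915% of all genes were called higher: Tpm2, beta-tropomyosin (3.04 ± 0.50, adjusted p = 0.000726), Tpm1, alpha-tropomyosin (1.39 ± 0.24, adjusted p = 0.00174) and Cald1, caldesmon (2.33 ± 0.56, adjusted p = 0.0367). Their median log2 fold change was 1.48. Of 4 further mural cell genes Mcam rose (4.51 ± 1.05, adjusted p = 0.0288); over the 14 libraries Rgs5, a pericyte gene, had 24.6 to 199 CPM and Notch3, a receptor gene of mural cells, had 0.682 to 183 CPM. Without the library labelled Dnmt1cKO 3, Tpm2 (2.91 ± 0.52, adjusted p = 0.00308), Tpm1 (1.199 ± 0.24, adjusted p = 0.00887) and Mcam (4.70 ± 1.03, adjusted p = 0.0208) were called and Cald1 (1.75 ± 0.55, adjusted p = 0.151) was not. Of 16 further fibroblast and matrix genes none was called (median 1.45), Eln, the elastin gene, having 3.24 ± 0.94 (adjusted p = 0.103). Of 9 further mesothelium genes none was called (median 1.84), and their fold changes were positive for 5 and negative for 4. Among the positive ones Aldh1a2, a retinoic acid synthesis enzyme gene, had 2.65 ± 0.75 (adjusted p = 0.0951). Among the negative ones were Upk1b (-0.53) and Krt19 (-0.32), which are also part of the urothelium list. In Control against Cre-negative none of these genes was called by edgeR, with 6, 5, 1 and 2 at an unadjusted p under 0.05 among the further matrix, muscle, mural and mesothelium genes, all higher, against 3.49% of all genes.

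Tpm1 and Mcam did not follow the order of the members. Tpm1 had 355 to 675 CPM in Cre-negative and 978 to 2144 CPM in Dnmt1cKO, and Mcam had 0 to 7.44 CPM in Cre-negative and 27.9 to 124 CPM in Dnmt1cKO. Every Dnmt1cKO library thus lay above every Cre-negative library for each, as for 0.853% of all genes tested. Control against Cre-negative was positive too, with a log2 fold change of 3.96 for Mcam (edgeR adjusted p = 0.273) and 0.97 for Tpm1 (adjusted p = 0.406). Neither was called there, so a rise particular to Dnmt1cKO is not shown. Both genes were singled out after their values had been seen. Dnmt1cKO 1, with a fibroblast and matrix sum of 414 CPM, had 1057 CPM of Tpm1 and 54.4 CPM of Mcam. Cre-negative 5, with a sum of 3366 CPM, had 620 and 7.44 CPM. Among the members and the further genes of these tissues, only these 2 genes had all Dnmt1cKO libraries above all Cre-negative libraries.

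Markers of other cell types were read from the same test. No gene of the striated muscle (3 tested), cardiac muscle (3), Hedgehog response (5), endothelium (7), immune (5) or erythroid (5) lists was called in Dnmt1cKO against Cre-negative. Of the striated muscle list, Myod1, Myf5 and Ckm were at most 0.341 CPM. Other genes of that list were higher in single libraries: Acta1 reached 81.3 CPM in Control 2, Myh3 44.0 and Myog 13.2 CPM in the library labelled Dnmt1cKO 3, and Actn2 31.7 CPM in Cre-negative 7. Their part in the muscle sums was not tested. The median log2 fold change was 1.24 for endothelium, 0.90 for immune cells and 1.79 for erythroid genes. Uchl1, a neuronal ubiquitin hydrolase gene, fell by 2.40 ± 0.58 on the log2 scale (adjusted p = 0.0377). Of the 16 urothelium genes 0 were called and 15 had a negative fold change, with a median of -0.50, and Gata3, a urothelial transcription factor gene, had -1.58 ± 0.41 (adjusted p = 0.0562). Without the library labelled Dnmt1cKO 3, Upk2, a uroplakin gene, was called lower (-2.03 ± 0.45, adjusted p = 0.0224).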

How the data were processed

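Polyadenylated RNA of 14 pooled lysates of bladder urothelium was sequenced, and the groups follow the sample titles. The authors deposited RSEM expected counts per gene symbol, without scaling for depth. Per the submitters' processing notes, RSEM 1.2.3 and Bowtie 0.12.9 were used with build mm10, after bcl2fastq 2.17.1.14. Annotation, filters and the use of strand are not given in the sources used here. No molecular identifiers are described, so floors (3 counts) cover counting error only. Total counts were 2520509 to 13131921, and 3 counts equal 0.207 CPM in the deepest and 1.30 CPM in the shallowest library.

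Expected counts were rounded, filtered with filterByExpr, scaled by TMM and tested with edgeR 4.0.16 (quasi-likelihood, R 4.3.3) with the 14 libraries in 1 fit. A Benjamini-Hochberg adjusted p under 0.05 over all genes tested was a call. The script was tested on simulated data. CPM use TMM-scaled library sizes; correlations use log2(sum + 1). Ratios between libraries use members other than Msln with at least 20 counts in each. Alternatives were DESeq2 1.42.0, limma-voom (limma 3.58.1), scaling by RLE or upper quartile, other filters, other sample sets and a replicate block. Transcripts were compared with blastn 2.17.0. Genes were placed with the GENCODE annotation (GRCm38) and promoters come from RefSeq (GRCm38.p6).

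Values in each library were given for members called in any comparison, the 2 highest in each subset and a fixed set of classical markers; others were chosen after their values were seen. The members and lists were chosen with earlier results of these data known. Levels use the expected counts without rounding.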

Additional observations from a re-analysis of the deposited data

Results flagged for a closer look

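In 79 sets of values (1 gene or subset sum in 1 group of 5 or 7 libraries), 9 had a library far from the others of its group by Dixon's test. By chance the test flags about 1 in 20 groups of normally distributed values. That rate does not hold for sets mostly at 0, such as Cspg4 in Cre-negative, and Msln is part of the mesothelium sum. The count of 9 is therefore not set against that rate. In Dnmt1cKO, Dpt stood at 33.4 CPM and Bnc1 at 50.9 CPM in the library labelled Dnmt1cKO 3, against at most 0.104 and 0.434 CPM in the other libraries. Dnmt1cKO 1 was low in 2 smooth muscle genes, Cnn1 (0.855 CPM, others 21.1 to 60.8) and Lmod1 (0.285 CPM, others 12.5 to 44.3).

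In Cre-negative, Cspg4 had 0.916 CPM in Cre-negative 5 and 0 in the others. Gpm6a had 1.17 CPM in Cre-negative 7, and Bnc1 had 2.02 CPM in Cre-negative 1. Msln was lowest in Cre-negative 6, at 36.0 CPM against 76.2 to 131 CPM in the others, and with it the summed mesothelium level (36.4 CPM, others 87.1 to 135).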

How the results depend on the processing

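In Dnmt1cKO against Cre-negative the count of members called, 3 (1.10% of all genes), became 8 with DESeq2 (4.36%), 0 with limma-voom (3.49%), 11 with no filter (1.64%), 1 with the stricter filter (0.564%), 6 without the 3 shallowest libraries (1.05%) and 0 with Cre-negative and Control joined as 1 reference (0.960%). The percentages are the share of all genes called. Leaving out 1 library at a time gave 0 to 8. In Control against Cre-negative the count of 0 became 1 with upper-quartile scaling (0.0769%), 1 with DESeq2 (0.161%), 1 with limma-voom (0.307%), 7 with no filter (0.165%) and 1 when only these 2 groups were fitted (0.0473%), and 0 to 2 with 1 library left out; the 2 were without Cre-negative 5 and the 1 without Control 1. In Dnmt1cKO against Control it was 0 in all 16 alternatives. The cause of these changes was not tested, except that fewer or more genes or libraries enter some fits.

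Same-numbered libraries of different groups did not deviate together (correlations -0.161 to 0.103 over 9 pairs), and 0 of 5 Dnmt1cKO libraries correlated best with the Cre-negative library of their number. Pairs with different numbers had -0.121 to 0.138 over 50 pairs. The values thus show no pairing by number. They cannot exclude a shared litter or batch, since the 2 Control libraries deviate from their mean as mirror images and the labels state no pairing. With the replicate number as a block, 1 member was called in Dnmt1cKO against Cre-negative (Myh11; 0.576% of all genes), 6 in Control against Cre-negative (0.146%) and 0 in Dnmt1cKO against Control.

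Of 22 alternatives, Tagln lost its call in 4, Myh11 in 9 and Sparc in 12, and each stayed positive in all. Their adjusted p ranged from 6.13e-05 to 0.501, from 4.82e-05 to 0.686 and from 0.000857 to 0.777. The median log2 fold change of all genes moved from -0.04 to -0.34 with limma-voom and to -0.41 with the block in Dnmt1cKO against Cre-negative. Counts under 3 in the shallowest library limit the mural and rarer mesothelium genes.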
